A study of Mus musculus with 6 samples.

Results

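The 45 genes described here encode hydrolases of the lysosome, proteins of its membrane and subunits of its proton pump. They were chosen by symbol for what their proteins do, and all 45 were among the 30281 gene symbols of the deposited table. Of the 45 genes, 11 encode cathepsins and other peptidases, 13 glycosidases and sulfatases, 6 lipid enzymes and lipid-binding proteins, 8 membrane proteins and 7 subunits of the vacuolar ATPase (V-ATPase). Poly(A)-selected RNA of 6 mouse libraries was sequenced. A pair of libraries came from mouse embryo fibroblasts (MEFs), labelled Tsc2+/+ p53-/- and Tsc2-/- p53-/-, with 1 library for each genotype. The other 4 came from 2 kidney epithelial lines labelled Tsc2-null, MKOC and TJ, each left untreated or given 100 nM rapamycin for 18 hr, with TJ cells labelled as derived from a secondary tumor in C57BL6 mice. The kidney lines were kept in serum-free DMEM with BSA, rapamycin inhibits the kinase complex mTORC1, and no kidney library is labelled wild-type.

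Lysosomes degrade proteins, glycans, sulfated polymers and lipids in an acidic lumen. Most of their soluble hydrolases reach them by a mannose 6-phosphate tag and its receptors, heavily glycosylated proteins line their membrane, and the V-ATPase pumps protons inward. The pump has a cytosolic sector, V1, which splits ATP, and a membrane sector, V0, through which protons pass. Loss of the tuberous sclerosis protein Tsc2 activates mTORC1, which works at the lysosomal surface and keeps the transcription factors Tfeb and Tfe3 in the cytosol. Many lysosomal genes carry a binding motif for these factors, called the CLEAR motif, in their promoters.

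Each line was 1 line and each MEF genotype was 1 library, so the 2 kidney lines were the only replicates, and they replicated rapamycin alone. Estimated counts per library were between 22887020 and 37505004. Tsc2 RNA was present in every library, at 22.6 TPM (the level per transcript length and library depth) in Tsc2+/+ MEFs, 10.5 in Tsc2-/- MEFs, 49.1 and 44.0 in untreated MKOC and TJ cells and 19.5 and 19.1 after rapamycin, so genotypes are given as the labels name them. Trp53 RNA was also present in both MEF libraries labelled p53-/-, at 26.3 and 28.6 TPM. Of 8 kidney epithelium markers, 6 had at least 1 TPM in every kidney library, with Epcam and Krt19 under 1 TPM there. The summed level of these 8 markers was 1429 to 1643 TPM in untreated and 2074 to 2454 TPM in treated kidney libraries. Of the 6 tested, 3 rose with rapamycin (edgeR, log2 change 0.79 for Krt8, 0.78 for Krt18 and 0.37 for Cdh16, adjusted p = 0.00043, 0.00042 and 0.023), while Pax8 and Pax2 had log2 changes of -0.12 and -0.01 (adjusted p = 0.46 and 0.98). Of 8 fibroblast markers, 7 had at least 1 TPM in both MEF libraries, and Thy1 was at 0 in the Tsc2+/+ library. The kidney list summed to 0.253 to 77.6 TPM in the MEFs. The fibroblast list summed to 3810 to 6645 TPM in the MEFs, 3623 to 4709 TPM in untreated and 5311 to 7561 TPM in treated kidney libraries, where 2 of its 8 genes had at least 1 TPM in both lines. Most of the kidney sum was Vim, at 4676 and 3609 TPM untreated and 7523 and 5292 TPM treated in MKOC and TJ cells (log2 change 0.66, adjusted p = 0.0028, edgeR). Of 8 macrophage markers, which matter here because macrophages are rich in lysosomes, 2 had at least 1 TPM in the kidney libraries, and the 8 summed to 18.8 to 33.5 TPM untreated and 23.3 to 35.4 TPM treated. Among them Tyrobp was at 0 in all 6 libraries, and Ptprc, Adgre1 and Fcgr1 were under 1 TPM in all 6.

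Promoter sequence was read for the genes of the list because the CLEAR motif is a feature that lysosomal genes are known to share. RefSeq promoter windows of GRCm38.p6, from 250 bases before to 50 bases after an annotated start, were found for 38 of the 45 genes. The 8 letters TCACGTGA, the palindromic centre of the motif, stood in the windows of 7 of the 38 genes (18.4%), against 304 of 27025 genes (1.12%). The shorter E-box CACGTG, which lies within those 8 letters and reads the same on both strands, stood in 15 of 38 genes (39.5%) against 8.09% of all genes. Genes expressed enough to test in the kidney lines had higher shares than all genes. By their rapamycin call, 10.3% to 13.7% held the E-box and 2.0% to 2.3% the 8 letters. The 7 genes were Ctsa, Ctsd, Gla, Mcoln1, Clcn7, Atp6v0d1 and Atp6v1a, so that the lipid class held none. Below are the 250 bases before the start of 4 of them, 5′ to 3′ on the strand of the gene with the 8 letters in capitals. Atp6v1a and Gla are shown because they fell with rapamycin, and Ctsd and Mcoln1 because they carried the same letters and did not pass that test.
Atp6v1a (chr16:44139260-44139509, minus strand): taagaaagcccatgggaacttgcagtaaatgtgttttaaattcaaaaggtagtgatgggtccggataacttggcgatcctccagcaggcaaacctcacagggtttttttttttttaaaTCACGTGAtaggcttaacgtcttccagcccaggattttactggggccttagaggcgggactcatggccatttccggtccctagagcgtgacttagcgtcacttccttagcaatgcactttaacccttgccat
Gla (chrX:134601006-134601255, minus strand): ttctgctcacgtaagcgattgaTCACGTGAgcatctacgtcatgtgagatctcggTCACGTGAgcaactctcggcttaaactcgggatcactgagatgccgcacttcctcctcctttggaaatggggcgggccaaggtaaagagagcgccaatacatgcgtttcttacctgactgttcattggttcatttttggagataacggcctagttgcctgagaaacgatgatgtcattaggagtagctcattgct
Ctsd (chr7:142387828-142388077, minus strand): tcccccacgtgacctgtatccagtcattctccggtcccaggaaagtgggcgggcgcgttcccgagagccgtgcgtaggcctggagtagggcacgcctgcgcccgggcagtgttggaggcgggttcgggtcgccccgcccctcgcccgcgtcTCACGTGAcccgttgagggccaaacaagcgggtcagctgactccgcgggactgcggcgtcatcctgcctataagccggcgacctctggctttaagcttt
Mcoln1 (chr8:3500269-3500518, plus strand): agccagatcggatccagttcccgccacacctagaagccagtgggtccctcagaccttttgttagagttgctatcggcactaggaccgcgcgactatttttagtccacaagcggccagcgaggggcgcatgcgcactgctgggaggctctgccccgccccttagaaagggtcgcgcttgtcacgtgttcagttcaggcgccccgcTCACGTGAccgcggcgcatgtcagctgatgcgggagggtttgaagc
The letters began 132 bases before the start in Atp6v1a, 228 and 195 bases before it in Gla, 99 bases in Ctsd and 46 bases in Mcoln1. A match of letters is a description of the window and not a measured binding site.

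The genes were expressed in all 6 libraries with few exceptions. In every library 40 of the 45 had at least 1 TPM, 36 had at least 10 TPM and 13 had at least 100 TPM. The 5 that missed 1 TPM in some library were all cathepsins (Ctsc, Ctsf, Ctsh, Ctsk and Ctss). At least 1000 TPM was reached in some library by Ctsd, Ctsl, Psap, Lamp1 and Cd63. The 45 genes together took 0.901% to 1.39% of the estimated counts of a library.

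**Figure D1:**
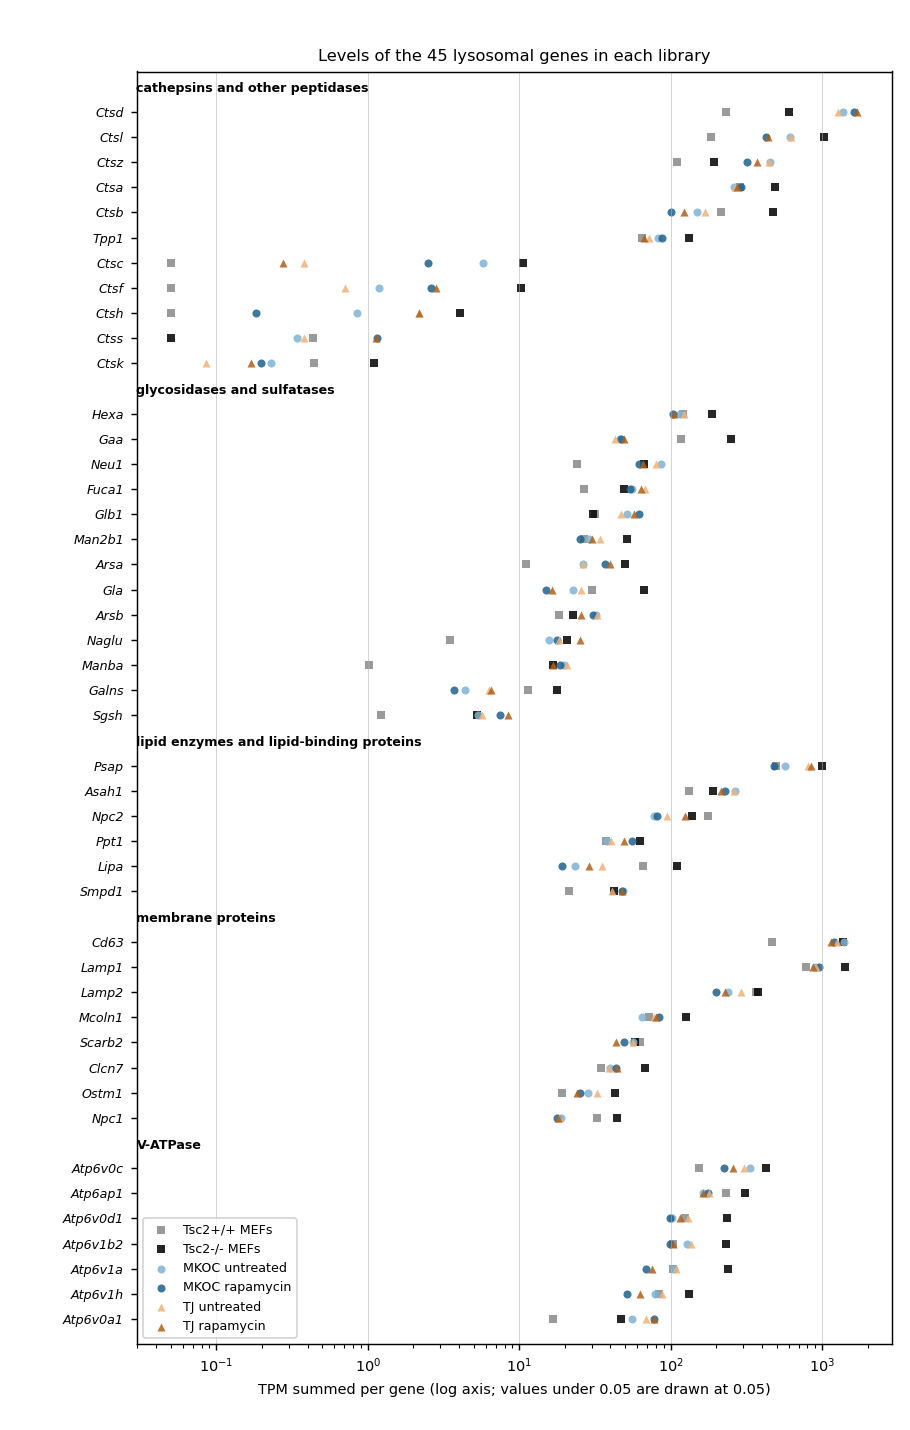
Level of each of the 45 genes (vertical axis, by class and then by mean level) in TPM summed over its transcripts (horizontal axis, logarithmic, values under 0.05 drawn at 0.05) in the 6 libraries, 1 point a library. Ctsd reaches 1712 TPM in rapamycin-treated TJ cells, whereas Ctsc, Ctsf and Ctsh are at 0 in Tsc2+/+ MEFs.

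Levels were summed within each class. The cathepsin class summed to 1096 TPM in Tsc2+/+ MEFs and to 2948 TPM in Tsc2-/- MEFs. In the kidney lines it summed to 2946 and 2856 TPM untreated (MKOC and TJ) and 2853 and 2995 TPM with rapamycin, close to the Tsc2-/- MEFs. Its makeup differed, since Ctsd took 21.2% and 20.6% of the class in the MEFs but 46.8% and 44.7% in the untreated kidney lines. With rapamycin Ctsd took 56.9% and 57.2%. Without Ctsd the class summed to 864 and 2341 TPM in Tsc2+/+ and Tsc2-/- MEFs. The untreated MKOC and TJ sums of 1568.5 and 1580.7 TPM, and the treated ones of 1229.3 and 1283.1 TPM, then lay between these. In the glycosidase, membrane and lipid classes the MEFs summed to 423 and 838, 1841 and 3495, and 926 and 1547 TPM. Untreated kidney sums lay between these too (1024.3 and 1286.5 TPM in the lipid class). The V-ATPase class summed to 817 and 1622 TPM in Tsc2+/+ and Tsc2-/- MEFs. It summed to 971 and 1014 TPM in untreated MKOC and TJ cells and to 796 and 853 TPM after rapamycin, so both treated libraries lay below both untreated ones. The membrane class (2746 and 2674 TPM untreated, 2577 and 2462 TPM treated) and the glycosidases and sulfatases (511 and 529 TPM untreated, 483 and 509 TPM treated) separated in the same way, but the membrane class overlapped without Cd63, and the other class overlapped without Hexa. Transcripts under 300 bases took more of the TPM in the treated libraries, 4.09% and 7.31% in untreated and treated MKOC cells and 5.69% and 7.998% in TJ cells, and without these transcripts the V-ATPase and membrane classes still separated while the glycosidases and sulfatases overlapped (531 and 560 TPM untreated, 516 and 549 TPM treated). The treated cathepsin sums then lay above the untreated ones (3072 and 3028 TPM untreated, 3078 and 3255 TPM treated). Without Ctsd they lay below. The V-ATPase class also separated without Atp6v0c, its most abundant gene, at 634 and 709 TPM untreated and 573 and 597 TPM treated. Over genes of at least 10 TPM, the median log2 ratio of treated to untreated TPM was -0.048 in MKOC and -0.054 in TJ cells. The class sums had log2 ratios of -0.079 and -0.056 (glycosidases and sulfatases), -0.091 and -0.119 (membrane) and -0.286 and -0.25 (V-ATPase).

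The comparison of rapamycin-treated with untreated kidney cells asked how the genes responded to inhibition of mTORC1. Of the 44 genes with enough counts to test, 5 rose and 11 fell at an adjusted p under 0.05, and 28 were not called. Calls were about as frequent as in all genes, since 36.4% of the 44 were called against 34.9% of the 12952 genes tested. By direction, 11.4% rose against 17.5% of all genes, and 25.0% fell against 17.4% of all genes. The median log2 change was -0.11 over the 44 genes and 0.02 over all genes. By class, 4 of 7 V-ATPase genes fell, 3 of 10 cathepsins fell and 2 rose, and 3 of 13 glycosidases and sulfatases fell and 2 rose. In the membrane class 1 of 8 fell, and in the lipid class 1 of 6 rose. Without the cell line in the model 1 rose and 3 fell. Of the 16 called genes, Ctsb, Ctsl, Ctsz, Sgsh, Arsa, Ppt1 and Atp6v1h share exon sequence with a gene on the other strand in the annotation, so their values are less certain. A bulk level cannot tell less RNA per cell from a change in the mix of cells.

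**Figure D2:**
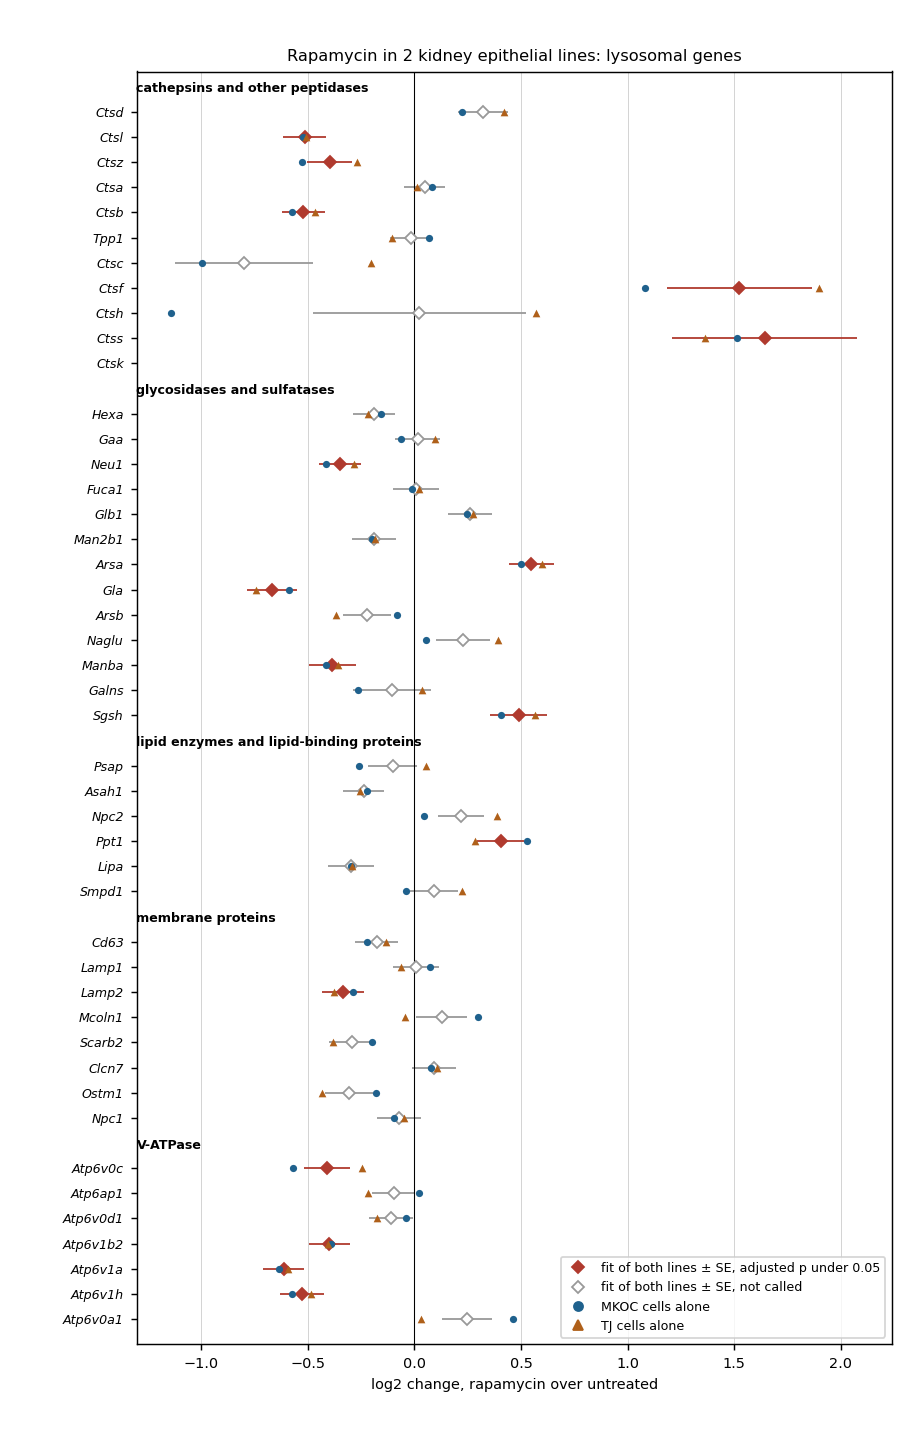
Log2 change of each tested gene with rapamycin (horizontal axis), with the fit of both lines ± SE as diamonds, filled red where the adjusted p is under 0.05, and the change in MKOC cells (circles) and TJ cells (triangles) alone, computed with 2 counts added, so that at low counts both can lie to 1 side of the fit. Ctsf and Ctss lie farthest right, and the 4 filled V-ATPase diamonds lie left of 0.

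The V-ATPase was the class with the largest share of called genes. Atp6v1a, the catalytic A subunit of V1 (chr16:44085402-44139705, minus strand, GRCm38), stood at 105 TPM in untreated and 68.3 TPM in treated MKOC cells and at 109 and 75.1 TPM in TJ cells. Both treated libraries were lower, and the log2 change was -0.61 (SE 0.10, adjusted p = 0.001, edgeR quasi-likelihood test). Atp6v1b2, the B subunit that alternates with A in the ATP-splitting ring, went from 129 to 99.5 TPM in MKOC and from 137 to 103 TPM in TJ cells, a log2 change of -0.40 (SE 0.10, adjusted p = 0.0093). Atp6v1h, a regulatory subunit of V1, went from 78.8 to 51.8 TPM and from 87.3 to 62.8 TPM (log2 change -0.53, SE 0.10, adjusted p = 0.0035). In each of these 3 V1 genes the treated and untreated libraries did not overlap. The share of all genes that do so was not counted, so this adds nothing to the calls.

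The V0 genes of the list were mixed. Atp6v0c, the proteolipid of the rotating ring, had 336 TPM untreated and 223 TPM treated in MKOC cells and 305 and 256 TPM in TJ cells, and its log2 change was -0.41 (SE 0.11, adjusted p = 0.015). Atp6v0d1, which couples the ring to the central stalk, and Atp6ap1, an accessory protein of the pump, had log2 changes of -0.11 and -0.10 with adjusted p of 0.44 and 0.49. Atp6v0a1, an isoform of the large membrane subunit, had a log2 change of 0.25 (adjusted p = 0.13), made up of 0.46 in the MKOC line and 0.03 in the TJ line.

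The remaining subunit genes of the pump were read from a list of 18. Of the 14 tested, 6 fell and 1 rose (42.9% and 7.1%, against 17.4% and 17.5% of all genes). With the 7 genes above, V1 had 10 tested genes, of which 7 fell and 1 rose, with a median log2 change of -0.42. V0 had 9 tested genes, of which 2 fell (Atp6v0c and Atp6v0b), with a median of 0.02, and 2 of 9 is close to the 17.4% of all genes that fell. Of the 2 accessory genes Atp6ap2 fell by 0.45 on the log2 scale. The difference between the sectors was not tested. Atp6v1c1, Atp6v1g1 and Atp6v1d, which build the stalks of V1, fell by 0.53, 0.45 and 0.34 on the log2 scale (adjusted p = 0.0025, 0.0072 and 0.036), with Atp6v1d not called by DESeq2 or limma. Atp6v1c2 fell by 1.71 from at most 1.48 TPM, a call that DESeq2 and limma did not make, and Atp6v1g2, the V1 gene that rose (log2 change 1.19, adjusted p = 0.019), had 1.70 to 3.88 TPM and was not called by DESeq2. Both are isoforms that were scarce in these lines.

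**Figure D3:**
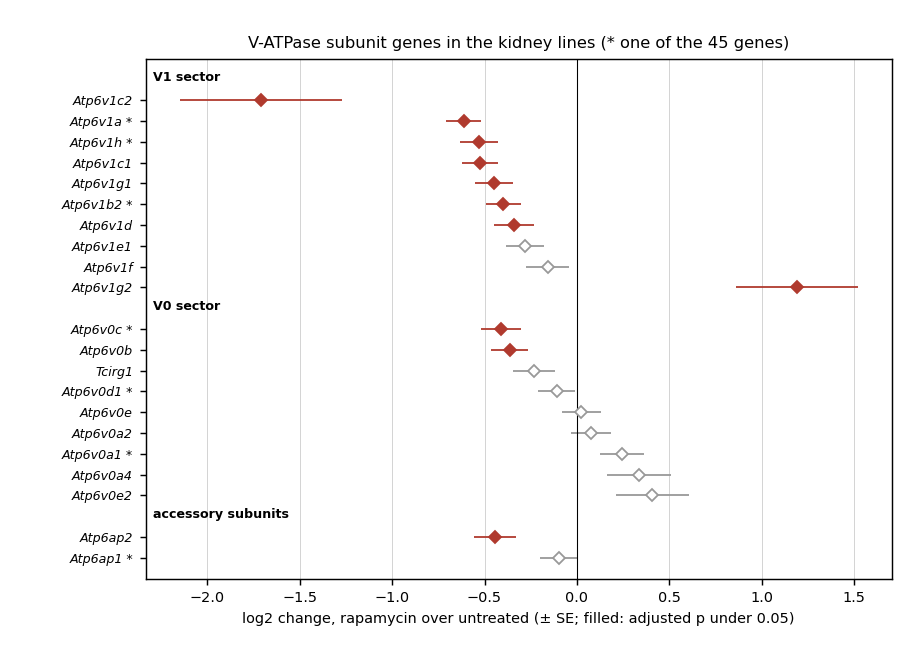
Log2 change with rapamycin in the 2 kidney lines (horizontal axis, fit ± SE) of the 21 tested subunit genes of the V-ATPase, grouped by sector, with filled points at an adjusted p under 0.05 and a star at the 7 genes of the list. In V1, 7 of 10 points are filled and left of 0, and in V0 2 of 9 are.

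Among the peptidases, the abundant cysteine cathepsins fell, and the aspartic one did not pass the test. Ctsl, a cysteine endopeptidase (chr13:64359337-64370890, minus strand), had 611 TPM untreated and 428 TPM treated in MKOC cells and 623 and 440 TPM in TJ cells. Its log2 change was -0.52 (SE 0.10, adjusted p = 0.0034). Ctsb, which cuts inside and at the ends of chains, went from 148 to 100 TPM and from 169 to 123 TPM (log2 change -0.52, SE 0.10, adjusted p = 0.0029). Ctsz, a carboxypeptidase, fell by 0.40 on the log2 scale (adjusted p = 0.014), by 0.53 in MKOC cells and 0.27 in TJ cells. Ctsd, the main aspartic protease of lysosomes, had 1378 and 1275 TPM untreated and 1624 and 1712 TPM treated in MKOC and TJ cells. Both treated libraries were above both untreated ones, but its log2 change of 0.32 (SE 0.12) missed the threshold at an adjusted p of 0.056. Ctsa and Tpp1, a carboxypeptidase and a tripeptidyl peptidase, had log2 changes of 0.05 and -0.02 (adjusted p = 0.73 and 0.91).

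The peptidases that rose were scarce ones. Ctsf, a cysteine cathepsin, had 1.19 TPM untreated and 2.61 TPM treated in MKOC cells and 0.710 and 2.83 TPM in TJ cells, from 23 to 92 estimated counts a library (log2 change 1.52, SE 0.34, adjusted p = 0.0068). Ctss, a cathepsin best known from antigen-presenting cells, had 0.339 and 0.378 TPM untreated and 1.15 and 1.13 TPM treated, from 8 counts in each untreated library and 21 and 24 in the treated ones (log2 change 1.64, SE 0.43, adjusted p = 0.015). The macrophage marker Csf1r moved the same way, from 11.3 to 17.7 TPM in MKOC cells and from 25.0 to 30.3 TPM in TJ cells (log2 change 0.45, adjusted p = 0.018), while Tyrobp was at 0 and Ptprc, Adgre1 and Fcgr1 under 1 TPM. Cd68, the only other macrophage marker with enough counts to test, stood lower with treatment, at 7.08 and 5.33 TPM in MKOC cells and 8.01 and 4.48 TPM in TJ cells (log2 change -0.56, adjusted p = 0.097). DESeq2 and limma did not call Ctss. The part of other cells in the Ctss change was not tested. Ctsc and Ctsh had log2 changes of -0.80 (adjusted p = 0.081) and 0.02 (adjusted p = 0.98), and Ctsk, at 0.0852 to 0.230 TPM in the kidney libraries, had too few counts to test.

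The glycosidases and sulfatases moved both ways. Gla, the alpha-galactosidase that is deficient in Fabry disease (chrX:134588149-134601125, minus strand), had 22.7 TPM untreated and 15.0 TPM treated in MKOC cells and 25.4 and 16.6 TPM in TJ cells. Its fall of 0.67 on the log2 scale (SE 0.12, adjusted p = 0.0018) was the largest of the 11. Neu1, a sialidase, and Manba, the beta-mannosidase, fell by 0.35 and 0.39 (adjusted p = 0.022 and 0.021). Manba had 19.9 and 18.5 TPM in MKOC cells and 20.6 and 16.6 TPM in TJ cells. Its count-based log2 change in MKOC cells was -0.41, a larger fall than in TPM, so the size depended on the measure. Its main transcript took 95.6% of its TPM in untreated and 76.1% in treated MKOC cells. Arsa, the sulfatase of sulfatides (chr15:89472476-89477425, minus strand), rose from 26.4 to 36.7 TPM in MKOC cells and from 26.4 to 39.5 TPM in TJ cells (log2 change 0.55, SE 0.11, adjusted p = 0.0033). Sgsh, a sulfamidase of heparan sulfate, rose from 5.35 to 7.51 TPM and from 5.66 to 8.39 TPM (log2 change 0.49, SE 0.13, adjusted p = 0.017). DESeq2 and limma called neither Manba nor Sgsh. The other 8 genes of the class, Hexa, Glb1, Gaa, Man2b1, Fuca1, Naglu, Galns and Arsb, had log2 changes between -0.22 and 0.26 and adjusted p of 0.074 or more.

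The lipid and membrane classes had the fewest calls. Ppt1, a thioesterase that removes palmitate from proteins, rose from 38.2 to 55.6 TPM in MKOC cells and from 40.04 to 49.1 TPM in TJ cells (log2 change 0.40, SE 0.11, adjusted p = 0.018), a call that DESeq2 did not make. Lamp2, a major membrane glycoprotein of lysosomes, fell from 238 to 199 TPM and from 289 to 228 TPM (log2 change -0.34, SE 0.10, adjusted p = 0.023), a call that limma did not make. Lamp1, its paralog, stood at 901 and 954 TPM in MKOC cells and 910 and 877 TPM in TJ cells, with a log2 change of 0.01 (SE 0.11, adjusted p = 0.97). Other genes close to the threshold were Lipa, the acid lipase, at -0.30 (adjusted p = 0.056), Scarb2, the receptor that carries glucocerebrosidase, at -0.29 (adjusted p = 0.060), and Ostm1, the partner of the chloride transporter Clcn7, at -0.31 (adjusted p = 0.061). Clcn7 itself, the calcium channel Mcoln1 and the cholesterol transporter Npc1 had log2 changes of 0.09, 0.13 and -0.07.

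The promoter letters were set beside the rapamycin response. Of those that fell and had a window, 2 of 8 held TCACGTGA, against 0 of 5 that rose and 5 of 24 that were not called. Among all tested genes with a window the shares were 2.0% of those that fell, 2.3% of those that rose and 2.3% of those not called. Of the 4 genes of the Mitf and Tfe family, Tfeb, Tfe3 and Mitf were tested, and their adjusted p were 0.058 or more. Tfe3 had 32.6 and 25.7 TPM in MKOC cells and 35.7 and 27.9 TPM in TJ cells (log2 change -0.29, adjusted p = 0.058), and Tfeb had 12.6 and 10.2 TPM in MKOC cells and 12.2 and 18.0 TPM in TJ cells.

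Genes of the tag and receptor route to the lysosome were read beside the enzymes. Of 10 such genes 3 fell (30.0%, against 17.4% of all genes). M6pr, the cation-dependent mannose 6-phosphate receptor, fell from 133 to 92.9 TPM in MKOC cells and from 166 to 122 TPM in TJ cells (log2 change -0.49, SE 0.10, adjusted p = 0.0035). Gga2, an adaptor that sorts these receptors, fell by 0.82 on the log2 scale (adjusted p = 0.00045). Igf2r, the larger receptor of the same tag, was scarce in the kidney lines, at 0.314 and 0.140 TPM in MKOC cells and 1.12 and 0.202 TPM in TJ cells (log2 change -1.10, adjusted p = 0.027), against 23.7 and 62.8 TPM in the MEFs, and its fall was not called by DESeq2 or limma. In each of the 4 kidney libraries M6pr was thus the more abundant receptor by far, whereas the MEFs held both.

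Of 25 other lysosomal hydrolases 24 were tested, and 6 fell and 5 rose (25.0% and 20.8%, against 17.4% and 17.5% of all genes). Scpep1, a serine carboxypeptidase, fell from 204 to 98.3 TPM in MKOC cells and from 198 to 91.0 TPM in TJ cells (log2 change -1.10, SE 0.10, adjusted p = 4.1e-05). Hyal1, a hyaluronidase, fell by 1.25 on the log2 scale (adjusted p = 0.0013). Ctso, Idua and Acp2, a cathepsin, the iduronidase and an acid phosphatase, rose by 0.92, 0.60 and 0.55 on the log2 scale (adjusted p = 0.018, 0.0089 and 0.0045). Of 19 other membrane proteins 18 were tested, and 3 rose (Cln3, Slc17a5 and Tmem175, log2 changes 0.40 to 0.48) and Laptm4b fell by 0.33. Of these genes DESeq2 called neither Ctso, Idua, Cln3, Slc17a5, Tmem175 nor Laptm4b.

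The comparison of Tsc2-/- with Tsc2+/+ MEFs asked how the genes differed with the labelled loss of Tsc2. It had 1 library a genotype, so it carries no test, and a gene was counted when log2(TPM + 1) differed by at least 1 (2-fold), which understates the change of low genes. Of 44 genes with at least 1 TPM, 21 were at least 2-fold higher in the Tsc2-/- library (47.7%, against 25.2% of 12771 genes) and 0 were at least 2-fold lower (5.18% of all genes). The median log2 fold was 0.95 over the 44 genes and 0.45 over all genes. Transcripts under 300 bases made up 20.9% of all TPM with the Tsc2+/+ genotype and 7.12% without, and the median ratio of TPM over 7377 genes of at least 10 TPM was 1.31. With TPM scaled to a median ratio of 1, 12 of the 44 were at least 2-fold higher (27.3%, against 15.8% of all genes) and 0 were lower (8.21% of all genes). The scaled medians were 0.57 over the 44 genes and 0.09 over all genes, and 39 of the 44 (88.6%) were above 0, against 55.6% of all genes. The 2 MEF libraries also differed in cell type markers. Krt18 and Krt19 of the epithelial list had 0 and 0.0506 TPM in the Tsc2+/+ library and 20.6 and 55.6 TPM in the Tsc2-/- library, while the other 6 were under 1 TPM in both. Of the fibroblast list, Vim had 3522 and 1118 TPM and Fn1 1306 and 612 TPM, and Thy1 had 0 and 7.36 TPM. That list split, with 2 of its 8 genes at least 2-fold higher (Thy1 and Pdgfra, the latter at 10.8 and 36.1 TPM) and 2 lower (Vim and Fn1). Under 2-fold, Col1a1 and Col3a1 were higher at 274 and 474 TPM and 503 and 751 TPM. Col1a2 and Pdgfrb were lower at 996 and 788 TPM and 32.95 and 23.16 TPM. Csf1r of the macrophage list had 0.0162 and 1.77 TPM, and the 8 macrophage markers summed to 2.60 to 9.05 TPM. The part of these differences in the lysosomal folds was not tested.

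**Figure D4:**
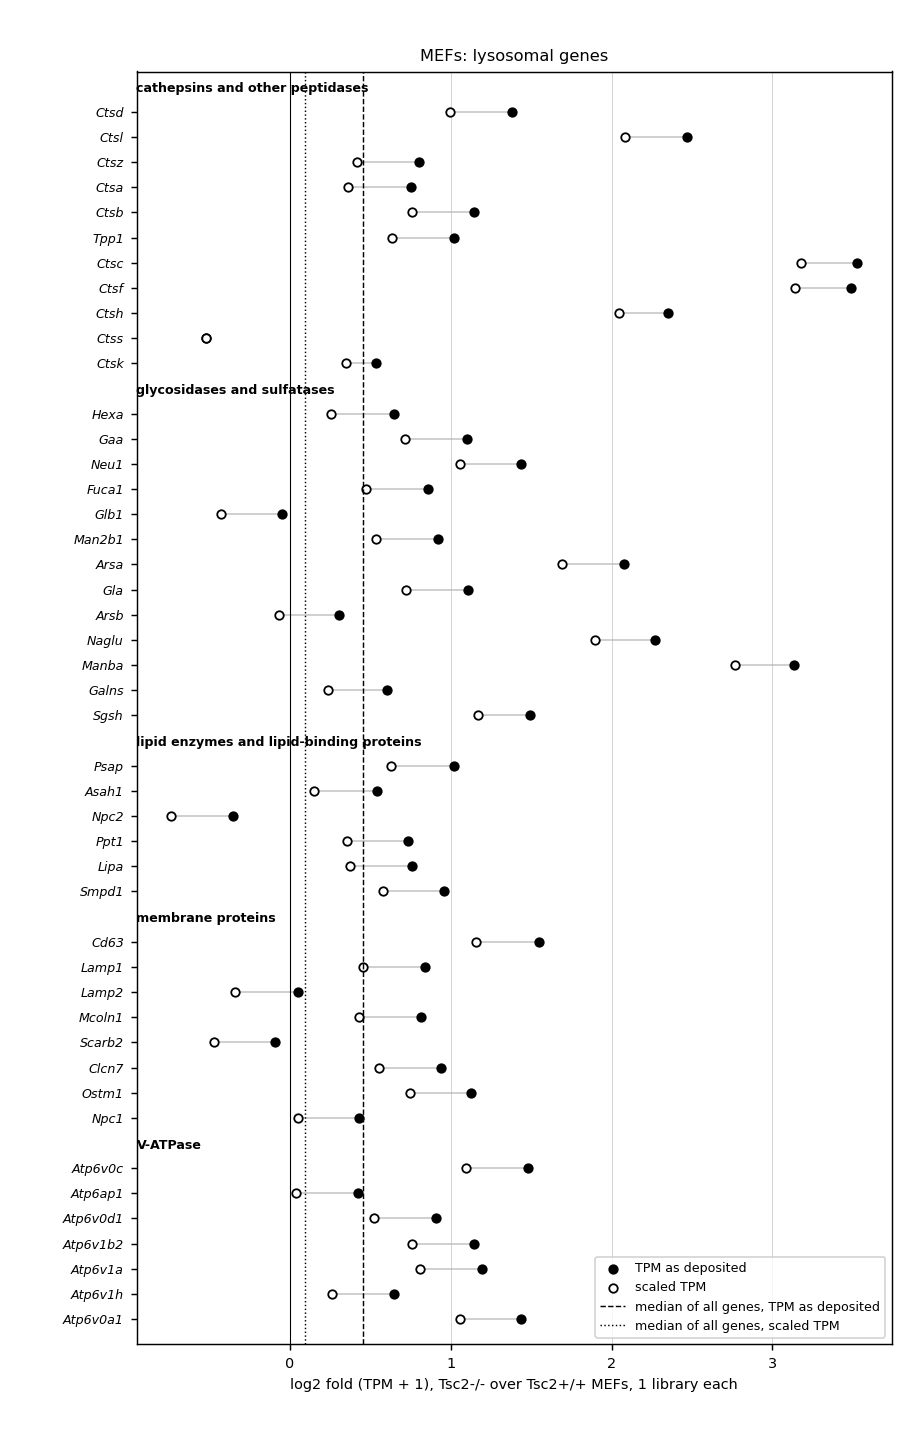
Log2 fold of each gene (horizontal axis) between the Tsc2-/- and the Tsc2+/+ MEF library, 1 library each, with filled points for TPM as deposited, open points for TPM scaled to a median ratio of 1, and dashed and dotted lines at the medians of all genes, 0.45 and 0.09. Of the 44 genes with at least 1 TPM, 39 have their open point right of 0, with Ctsc, Ctsf and Manba farthest.

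The largest log2 folds among the listed genes were those of the peptidases Ctsc and Ctsf (3.53 and 3.49). Like Ctsh, both reached the 1 TPM minimum in the Tsc2-/- library alone. Among listed genes with counts in both libraries, the largest log2 fold was that of Manba, a glycosidase (3.13), ahead of Ctsl (2.47). Ctsc, Ctsf and Ctsh had 0 estimated counts in Tsc2+/+ MEFs, and 10.5, 10.2 and 4.09 TPM in Tsc2-/- MEFs from 366, 284 and 52 counts. Against the 3 counts that a count of 0 allows in 1 library, these values were 255-fold, 192-fold and 44.9-fold higher as deposited. With scaled TPM they were 195-fold, 146-fold and 34.2-fold higher. With the lower ends of their own 95% intervals, the 3 genes were at least 176-fold, 130-fold and 26.1-fold higher (scaled TPM). Ctsl went from 184 TPM (95% interval 181 to 188) to 1027 TPM (1015 to 1039), and its log2 fold was 2.47, or 2.08 scaled. Ctsd had 232 and 607 TPM (log2 fold 1.38, scaled 0.99) and Ctsb 215 and 477 TPM (log2 fold 1.14, scaled 0.76). Ctss went the other way, with 0.437 TPM from 16 counts in Tsc2+/+ and 0 counts in Tsc2-/- MEFs. It was under 1 TPM in both libraries and so was left out of the counts of folds. The intervals cover counting error only.

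Among the glycosidases and sulfatases, Manba went from 1.02 TPM (interval 0.805 to 1.29) to 16.7 TPM (15.7 to 17.9), a log2 fold of 3.13 or 2.77 scaled. Naglu, an enzyme of heparan sulfate, had 3.50 and 20.7 TPM (log2 fold 2.27, scaled 1.90), and Arsa 11.2 and 50.2 TPM (log2 fold 2.07, scaled 1.69). Sgsh had 1.22 and 5.23 TPM and Neu1 24.1 and 66.9 TPM, with scaled log2 folds of 1.17 and 1.05. These 5 passed 2-fold on both scales. Glb1, the beta-galactosidase, was level at 31.7 and 30.5 TPM, and Arsb had 18.2 and 22.7 TPM (log2 fold 0.30, scaled -0.07).

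The lipid class held the gene with the lowest fold of the 44. Npc2, the soluble cholesterol carrier, had 177 TPM in Tsc2+/+ and 138 TPM in Tsc2-/- MEFs (log2 fold -0.36, scaled -0.74). Psap, the precursor of the saposins, had 494 and 1002 TPM (log2 fold 1.02, scaled 0.63). In the membrane class Cd63 had 467 and 1366 TPM (log2 fold 1.55, scaled 1.16), Lamp1 had 787 and 1411 TPM (log2 fold 0.84, scaled 0.45) and Lamp2 had 366 and 379 TPM (log2 fold 0.05, scaled -0.34). In the V-ATPase class Atp6v0c had 153 and 429 TPM and Atp6v0a1 had 16.8 and 47.1 TPM, with scaled log2 folds of 1.09 and 1.06. Atp6v1a, with 103 and 238 TPM, had a log2 fold of 1.20 or 0.81 scaled, and Atp6ap1 had one of 0.42 or 0.04 scaled.

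Of the 25 other hydrolases 6 were at least 2-fold higher and Aga was lower (3 higher and 2 lower scaled). The shares higher, 24.0% and 12.0% scaled, were at or below the 25.2% and 15.8% of all genes. Acp5 and Gm2a were among the 3, with scaled log2 folds of 3.34 and 1.34. Of 17 other membrane proteins with at least 1 TPM 7 were higher (41.2%; scaled 5 higher, 29.4%, and 1 lower, Mfsd8 at -1.14), with Cln3 at 0.246 and 34.0 TPM from 14.7 and 526 counts. Of the 10 genes of the mannose 6-phosphate route 5 were higher (3 scaled, 30.0%, Nagpa, Sumf1 and Gga2), and of 13 other V-ATPase genes 5 were higher (38.5%; 2 scaled, 15.4%). Tfeb had 3.05 TPM in Tsc2+/+ and 13.8 TPM in Tsc2-/- MEFs (log2 fold 1.87, scaled 1.51), and Tfe3 had 76.8 and 58.2 TPM.

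The kidney lines were set beside the MEFs gene by gene. All 4 kidney libraries lay above both MEF libraries for 8 of the 45 genes (26.8% of 13913 genes did so) and below both for 11 (21.4% of genes), and 26 overlapped. Separation was thus no more frequent than over all genes for those above and close to it for those below. This comparison used TPM as deposited and has no test, since tissue, culture and line cannot be told apart. The 8 were Ctsd, Ctsz, Glb1, Fuca1, Sgsh, Arsb, Asah1 and Atp6v0a1. Ctsd had 1275 to 1712 TPM in the kidney libraries against 232 and 607 TPM in the MEFs, and Asah1, the acid ceramidase, had 215 to 267 TPM against 131 and 191 TPM. The 11 below were Ctsb, Ctsk, Gaa, Gla, Galns, Npc2, Lipa, Lamp2, Npc1, Scarb2 and Atp6ap1. Gaa, the acid alpha-glucosidase, had 42.7 to 48.9 TPM against 117 and 251 TPM, and Lipa had 19.2 to 35.1 TPM against 65.2 and 111 TPM.

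The 2 kidney lines were close to each other in these genes. Between untreated TJ and MKOC cells, 0 of 43 genes with at least 1 TPM were at least 2-fold higher in TJ cells (2.01% of 11950 genes) and 1 was lower (0.887% of genes). The gene was Ctsc, a dipeptidyl peptidase (chr7:88278085-88310888, plus strand), with 5.79 TPM (interval 5.06 to 6.62) in MKOC and 0.380 TPM (interval 0.226 to 0.638) in TJ cells, from 212 and 14.0 counts. In the treated libraries it had 2.48 and 0.275 TPM. Ctsh had 0.844 and 2.17 TPM in untreated MKOC and TJ cells and 0.182 and 2.18 TPM in treated ones, from 4 to 52 counts. With 1 library a line at each treatment these differences have no replicate check.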

How the data were processed

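Poly(A)-selected stranded RNA-seq of 6 mouse libraries was analysed. The authors trimmed paired-end reads, ran Kallisto (version and mouse transcriptome build not given in the sources used here) and deposited estimated counts, TPM, length and effective length for 88198 transcripts. The deposited ratio per transcript is the authors' own comparison and served here for gene symbols alone. Whether Kallisto used strand is not stated, so reads of genes that overlap on opposite strands (for example Ctsb and Fdft1) may not be separated. Counts with no symbol (0.372% to 0.468% of a library) were left out.

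TPM and estimated counts were summed per symbol. For rapamycin, counts rounded to whole numbers were filtered (filterByExpr), normalized (TMM) and tested over 12952 genes with edgeR's quasi-likelihood test (version 4.0.16, R 4.3.3), line as a covariate, Benjamini-Hochberg at 0.05. The labels name the line of each library, and deviations of libraries of 1 line correlated at 0.56. MEF and TJ against MKOC folds added 1 TPM, with no test. Intervals are 95% Wilson and the floor is 3 counts. Alternatives used upper-quartile scaling, no filter, no line term, DESeq2 1.42.0, limma 3.58.1, other pseudocounts and minimum levels, and leaving out each line. The steps were tested on simulated data.

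Genes and lists were chosen with earlier results of these data known. Named genes were all 45 where they passed a threshold or bore on a class, and from other lists those called or at least 2-fold different with the largest changes, while Atp6v0b, Atp6v1d and Atp6ap2 were named after their values were seen. Some genes of the other lists that met this rule are not reported here. Markers and Tsc2 were read as label checks. Positions are from GENCODE M21 and promoters from RefSeq (GRCm38.p6).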

Additional observations from a re-analysis of the deposited data

Results flagged for a closer look

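The rapamycin change had opposite signs in the 2 kidney lines for 10 of the 44 tested genes (22.7%, against 22.6% of all 12952 genes tested). In 7 of these the change was within counting error in at least 1 line. In the other 3 the libraries of each line differed by more than counting error, and the difference between the lines was not tested. Psap had a log2 change of -0.26 with the MKOC line and 0.06 with the TJ line, a difference of 0.32 (TJ less MKOC). Kallisto also divided the TPM of Psap differently among its transcripts. It gave ENSMUST00000105465 53.3% and 38.7% in untreated and treated MKOC cells but 41.3% and 65.3% in TJ cells. This division is an estimate between overlapping transcripts from 1 library a state, and its error was not measured. Tpp1 had changes of 0.07 and -0.11 (difference -0.17), and Lamp1 had changes of 0.08 and -0.06 (difference -0.14).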

How the results depend on the processing

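Rapamycin counts were 5 genes higher and 11 lower. Without the line as a replicate block (the pairing of libraries by line) they were 1 and 3, with DESeq2 2 and 10, with limma 3 and 9, and at an adjusted p under 0.01 2 and 6. Ctsl, Gla, Arsa and Atp6v1a were called under every one of these models and filters; Ctss, Manba and Sgsh were lost under 4. Ctsd was called with upper-quartile scaling and with no filter. The median log2 change, -0.11, was -0.07 with upper-quartile scaling, -0.089 without the block, -0.12 with DESeq2 and -0.10 with limma, and -0.13 to -0.12 with 1 line left out. In the MEFs 21 genes at least 2-fold higher became 12 with scaled TPM and 10 with TMM-normalized CPM. TJ over MKOC gave 1 gene higher with a pseudocount of 0.1 TPM or in treated libraries, and 0 lower among genes of at least 10 TPM. Leaving out transcripts under 300 bases, the MEF log2 ratios of the class sums were 1.20 (cathepsins), 0.76 (glycosidases), 0.51 (lipid), 0.69 (membrane) and 0.76 (V-ATPase). The rapamycin ratios were 0.05, -0.03, -0.03, -0.06 and -0.23 in the same order. Without the most abundant gene of each class the MEF ratios were 1.44, 1.10, 0.34, 0.63 and 0.85 in the same order. The rapamycin ratios were then -0.33 (0.01 with Ctsd), -0.04, -0.05, -0.04 and -0.20. The cause was not tested where a value moved. Counting limits Ctsc, Ctsf, Ctsh, Ctsk and Ctss most. With 2 lines the test favours genes that move alike in both.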
